A study of Mus musculus with 6 samples.

Results

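Described here are 7 protein genes of the mouse mitochondrial genome, out of 27378 genes listed in whole brain: ND1, ND2, ND4, ND5, ND6, COX1 and CYTB. They were chosen by name as the mitochondrial protein genes outside the stretch from COX2 to ND4L, and that choice rested on their measured levels, so the levels are given as a description with no test. Expression was measured by RNA sequencing in wild-type males of C57BL/6J, a widely used inbred mouse strain. The PS group (3 libraries) received polystyrene nanoplastic, particles of a common plastic found as a pollutant, through the nose for 28 days. The Control group (3 libraries) was given sterile distilled water through the nose over the same 28 days. The study asked how inhaled nanoplastic acts on the brain. The labels give no age and do not say that each library came from a separate animal, so p-values rest on the spread among these libraries, some or all of which may be technical.

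The 7 genes encode core subunits of the respiratory chain, the set of inner-membrane complexes that pass electrons to oxygen and pump the protons that drive ATP synthesis. ND1, ND2, ND4, ND5 and ND6 are membrane subunits of complex I (NADH dehydrogenase), CYTB is the cytochrome b of complex III, and COX1 is the catalytic subunit of complex IV (cytochrome c oxidase). The mitochondrial genome is copied into long RNAs that span many genes, which are then cut into separate mRNAs, mostly at the tRNAs between them. ND6 lies on the opposite strand from the other members and is made from the light-strand RNA. In human cells most heavy-strand mRNAs carry a poly(A) tail, and ND6 mRNA is known to lack one. Neurons rely heavily on respiration.

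Short stretches of the members are shown because they bear on how each was measured and on how ND6 differs. The sequences are those of the GENCODE M21 transcripts (build GRCm38), which was used for sequence by name and for gene order, since the deposited values rest on another build, GRCm39. All 7 are on the mitochondrial chromosome, and each is written 5′ to 3′ as its own mRNA. The first 30 bases of each gene follow, with the start codon in capitals.
ND1: GTGttctttattaatatcctaacactcctc
ND2: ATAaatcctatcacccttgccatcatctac
ND4: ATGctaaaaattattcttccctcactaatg
ND5: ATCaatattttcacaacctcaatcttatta
CYTB: ATGacaaacatacgaaaaacacacccatta
COX1: ATGttcattaatcgttgattattctcaacc
ND6: ATGaataattatatttttgttttaagttca
ND6 stands out by its letters, with much g and t and little c. It held 28.1% G and 6.0% C over its 519 bases, while the other members held 8.0 to 16.1% G and 23.8 to 27.7% C.

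The ends of ND5 and ND6 face each other and share 14 base pairs. The ends of both are given next, and the capitals mark the bases that pair with the other gene.
ND5: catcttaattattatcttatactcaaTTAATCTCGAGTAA
ND6: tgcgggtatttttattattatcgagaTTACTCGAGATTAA
How the authors' counting treated strand was not given in the sources used here, so reads of ND6 and of RNA antisense to it cannot be told apart. The mRNAs of ND4 and CYTB stop 1 base into a final codon, and in mitochondria such a stop codon is completed by the poly(A) tail. Their last 30 bases follow, with the base beyond the last whole triplet in capitals.
ND4: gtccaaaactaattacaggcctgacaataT
CYTB: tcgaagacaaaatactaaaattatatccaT

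Members differed in how much of their sequence is also found in annotated transcripts of nuclear genes. Nuclear chromosomes carry old copies of mitochondrial DNA, and a read that fits such a copy equally well may be lost or moved. Copies outside annotated transcripts were not searched, so the shares given here are lower limits for every member. Of all 50-base words in a gene, none of those of ND1, ND6 and CYTB occurred in an annotated nuclear transcript. ND5 shared 7.6% of its words and ND2 shared 8.2%. COX1 shared 51.1%, mostly with the pseudogenes Gm29216 (430 words) and Gm13340 (411 words), and ND4 shared 62.2%, all with the pseudogene Gm28439. Levels of COX1 and ND4 are therefore uncertain, although both were picked as well measured. These are shares of 50-base words, and the share of reads affected was not measured. None of the nuclear genes with shared words was listed under its name among the deposited values, so reads moved to them cannot be seen. In ND4 the shared part ran without a gap from base 1 to base 876 of 1378, and the 60 bases from 847 to 906 show its end, with shared bases in capitals.
ND4: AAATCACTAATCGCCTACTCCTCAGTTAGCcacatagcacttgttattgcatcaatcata
In COX1 the shared bases fell into 8 blocks, the longest from base 1067 to the last base, 1545. Its start is shown by the 60 bases from 1037 to 1096, again with shared bases in capitals.
COX1: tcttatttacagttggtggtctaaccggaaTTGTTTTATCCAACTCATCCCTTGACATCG

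**Figure D1:**
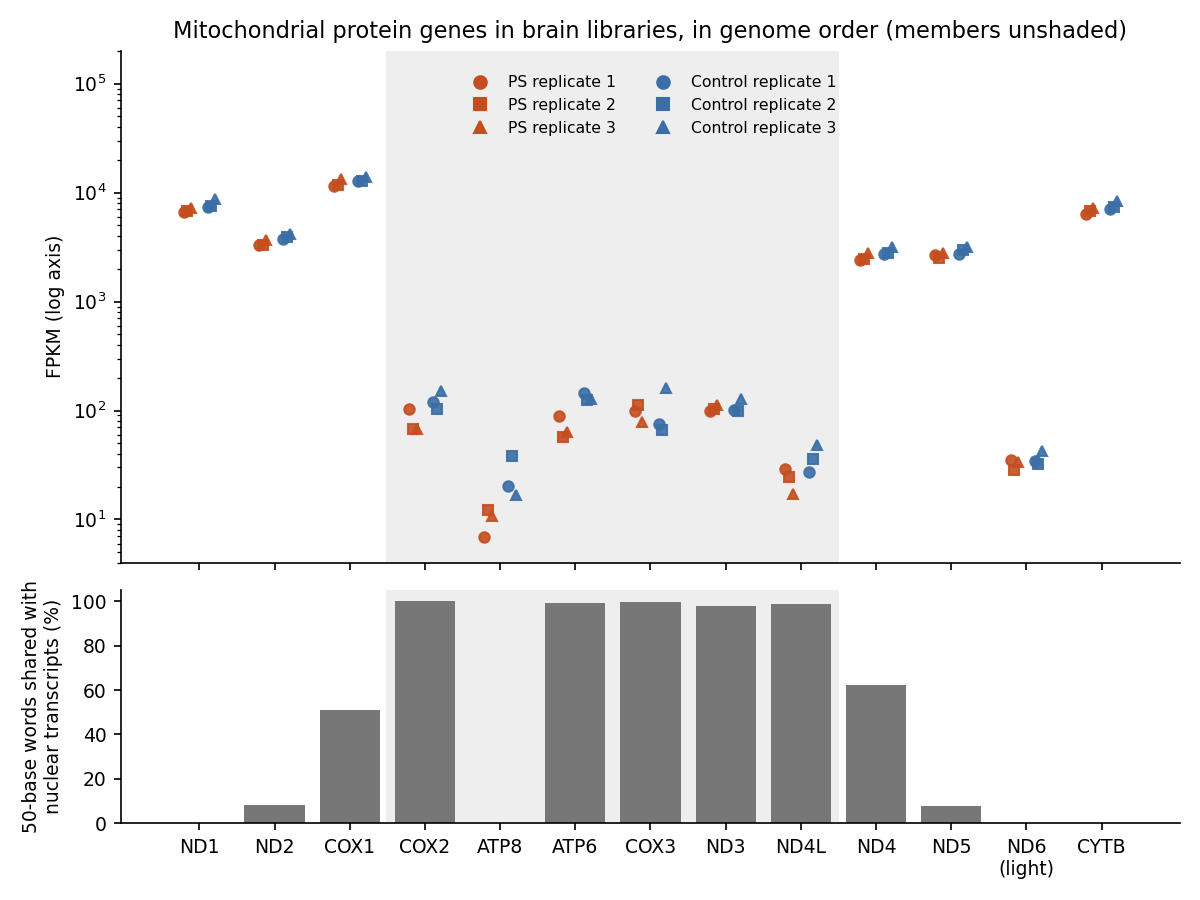
Level of each of the 13 mitochondrial protein genes in each library (upper panel, FPKM on a log axis, 1 point per library) and the percentage of its 50-base words found in nuclear transcripts (lower panel), in the order of the genes on the genome. The 6 heavy-strand members lie between 2405 and 13864 FPKM, while ND6 and the shaded genes from COX2 to ND4L lie between 6.86 and 159.4 FPKM.

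The 6 genes from COX2 to ND4L, left out of the set, were listed at far lower levels than their neighbours. COX2 stood at 79.25 ± 20.1 FPKM in PS and 124.5 ± 24.9 FPKM in Control brains (SD, n = 3 each), next to COX1 at 12188 ± 936 and 13162 ± 609 FPKM. ND4L stood at 23.49 ± 5.82 FPKM in PS and 37.17 ± 10.7 FPKM in Control brains, next to ND4 at 2548 ± 193 and 2884 ± 259 FPKM. Of these 6, COX2 shared 100% of its words with annotated nuclear transcripts, ATP6 99.5%, COX3 99.9% and ND4L 98.8%, and ND3 nearly as many, while ATP8 shared none. By mean level ATP8 was the lowest of these 6, at 9.889 ± 2.73 FPKM in PS and 25.22 ± 11.6 FPKM in Control brains. Only annotated transcripts were searched, so a nuclear copy of it could have been missed. The part of shared sequence in the low levels was not tested.

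FPKM values are fragments scaled to gene length and to the reads of the library, so they can be set side by side between genes. The order of the members by mean over the 6 libraries was COX1, ND1, CYTB, ND2, ND5, ND4 and ND6. COX1 was the gene with the highest FPKM of all 27378 in every library, ND1 ranked 2, CYTB 3 and ND2 4 in each. ND4 and ND5 ranked from 5 to 7, and ND6 from 1458 to 2204. Together the 7 members took 4.297 to 5.374% of all reads and 10.06 to 12.05% of all FPKM of a library. The reads behind a member's value numbered 132672 to 848942 for the heavy-strand members and 600 to 876 for ND6. Counting error alone is then 3.38 to 4.08% for ND6 and at most 0.275% for the others.

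Some neighbours in that order did not differ beyond their spread. ND1 exceeded CYTB in 6 of 6 libraries, but only 1.0 to 1.06 times, and the gap of the means (168 FPKM in PS, 277 in Control) was smaller than the larger SD of the pair (470.2 FPKM in PS, 705 in Control). ND5 exceeded ND4 in 5 of 6 libraries, by a factor of 0.992 to 1.12, and their gap was likewise smaller than the SD. All other neighbours kept their order in 6 of 6 libraries with gaps larger than the SD. COX1 was 1.60 to 1.82 times ND1, CYTB 1.89 to 2.05 times ND2, and ND2 1.22 to 1.36 times ND5. The lowest heavy-strand level, that of ND4, was 68.7 to 86.5 times that of ND6. Whether the RNA was selected by its poly(A) tail was not stated in the labels, so these ratios cannot be read as ratios of the RNAs in the tissue. Ratios with COX1 or ND4 also carry the uncertainty from shared sequence, which the SDs do not cover.

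Nuclear genes for subunits of the same complexes were listed at lower levels than the heavy-strand members. Over 37 nuclear subunits of complex I the mean level ran from 30.2 (Ndufab1) to 240.0 FPKM (Ndufb9) in PS, with a median of 96.7 FPKM, and from 27.8 to 242 FPKM in Control, with a median of 95.2 FPKM. The 9 nuclear subunits of complex III ran from 73.7 to 289 FPKM in PS and from 69.3 to 288 FPKM in Control. For complex IV the 12 nuclear subunits ran from 45.7 (Cox5a) to 712 FPKM (Cox4i1) in PS and from 46.3 to 708 FPKM in Control. ND6 thus lay at the low end of the nuclear complex I subunits, near Ndufab1, while every heavy-strand complex I member stood at 2405 FPKM or more in each library. Ndufab1 was among the genes named by rule, and Ndufb9, Cox5a and Cox4i1 are named for their levels after those were seen.

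All 7 members had lower mean levels in the PS than in the Control brains, each by a small margin that did not pass the test. Log2 fold changes, of PS over Control (scale log2 of FPKM + 1), ran from -0.21 (ND2) to -0.11 (COX1) with a median of -0.17, against a median of 0.003 over the 12229 genes tested. Limma called 0 of the 7 at an adjusted p under 0.05. In that comparison 0.164% of all tested genes were called. At an unadjusted p under 0.05 limma gave 1 of the 7, ND2, against 5.94% of all tested genes. Limma-voom on reads recovered from the FPKM steps called 0 and gave 5 of the 7 at an unadjusted p under 0.05, against 6.12% of all tested genes. Over the fits run this count of members went from 0, as with the replicate block or sample weights, to 5. The heavy-strand members rose and fell together over the libraries, so such counts are not of separate observations and cannot be read against the share of all genes. In whole tissue, fewer cells or mitochondria of a kind and less RNA in each cannot be told apart. Over all genes the library that stood farthest from the rest was Control replicate 2, and without it the members' log2 fold changes ran from -0.24 to -0.13. Without Control replicate 3, the highest library for all 7 members, they were closer to 0, from -0.16 (ND2) to -0.04 (ND6), with ND1 at -0.109, ND4 at -0.105 and CYTB at -0.097. All 7 stayed lower under each scaling tried except quantile normalization. There COX1, ND1, CYTB and ND2, which hold the same top 4 ranks in every library, come out at a difference of 0 by construction, and ND5 at 0.02.

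Among the complex I members, ND1, which sits at the junction of the membrane arm and the peripheral arm, had 6649, 6833.5 and 7266 FPKM in PS replicates 1, 2 and 3, against 7428, 7477 and 8673 FPKM in the Control replicates. The groups did not overlap, and Control replicate 3 stood well above the rest. The log2 fold change was -0.18 (SE 0.096, 95% interval -0.4 to 0.04, limma adjusted p = 0.868). ND2, a proton-pumping subunit, had 3277, 3277 and 3645 FPKM in PS and 3715, 3879.9 and 4169 FPKM in Control brains. Here too every PS value lay below every Control value. Its log2 fold change was -0.21 (SE 0.085, 95% interval -0.4 to -0.01, limma adjusted p = 0.817). ND1 and ND2 were the only 2 of the 7 members with no overlap between groups. Over all tested genes 6.33% lay lower in PS without overlap.

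ND4 and ND5 are proton-pumping subunits as well, and their groups overlapped. ND4 had 2405, 2472 and 2767 FPKM in PS and 2703, 2769 and 3181 FPKM in Control brains. PS replicate 3 lay above Control replicate 1 and just below Control replicate 2. The log2 fold change of ND4 was -0.18 (SE 0.093, 95% interval -0.39 to 0.03, limma adjusted p = 0.868). ND5, the longest member at 1824 bases, had 2687, 2487 and 2785 FPKM in PS and 2741, 2941 and 3156 FPKM in Control brains. Again PS replicate 3 exceeded Control replicate 1. Its log2 fold change was -0.15 (SE 0.085, 95% interval -0.34 to 0.04, limma adjusted p = 0.891).

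COX1, which holds the heme and copper site where oxygen is reduced, had 11496, 11816 and 13253 FPKM in PS and 12851, 12772 and 13864 FPKM in Control brains. PS replicate 3 lay above Control replicates 1 and 2. The log2 fold change of COX1 was the smallest in size of the 7 at -0.11 (SE 0.098, 95% interval -0.34 to 0.11, limma adjusted p = 0.973). CYTB, which carries the 2 b-type hemes of complex III, had 6300.3, 6706 and 7238 FPKM in PS and 7009, 7405 and 8334 FPKM in Control brains. PS replicate 3 lay between Control replicates 1 and 2. Its log2 fold change was -0.17 (SE 0.1, 95% interval -0.39 to 0.06, limma adjusted p = 0.918).

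**Figure D2:**
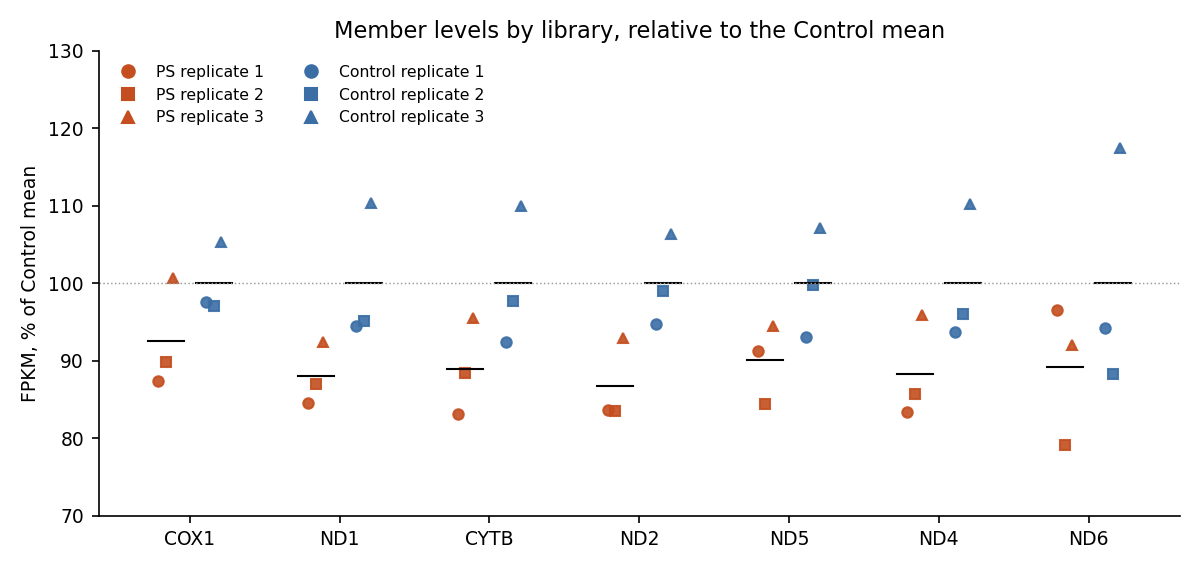
FPKM of each member in each library as a percentage of that member's mean over the 3 Control libraries (1 point per library, black bars are group means, dotted line at 100%). Control replicate 3 is the highest library for all 7 members, and only ND1 and ND2 have every PS value below every Control value.

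**Figure D3:**
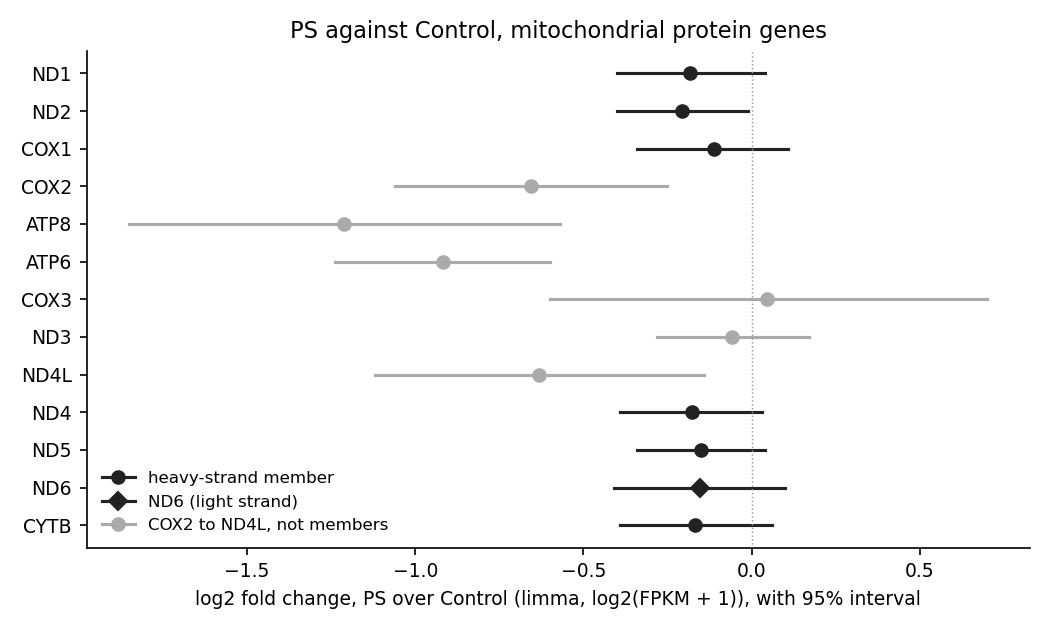
Log2 fold change of PS over Control (points) with its 95% interval from limma (lines) for the 13 mitochondrial protein genes in genome order. The 7 members lie between -0.21 and -0.11, and of their intervals only that of ND2 leaves out 0.

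ND6, a small subunit within the membrane arm of complex I, was the least abundant member and the most variable. It had 34.99, 28.66 and 33.37 FPKM in PS and 34.12, 32.02 and 42.59 FPKM in Control brains. PS replicate 1 lay above Control replicates 1 and 2, so the groups overlapped widely. The log2 fold change of ND6 was -0.15 (SE 0.111, 95% interval -0.41 to 0.1, limma adjusted p = 0.946), within the range of the heavy-strand members. Without Control replicate 3, its highest library, the value was -0.035. Over the 6 libraries the coefficient of variation of ND6 was 13.49%, against 6.98 to 10.12% for the others. That exceeds its counting error of 3.38 to 4.08%.

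Set against the 6 heavy-strand members within each library, ND6 did not differ detectably between the groups. For every 10000 FPKM of the 6 together there were 10.66, 8.532 and 9.03 FPKM of ND6 in PS replicates 1, 2 and 3, and 9.363, 8.596 and 10.29 in the Control replicates. The highest and the lowest value both came from PS libraries. The means were 9.408 ± 1.11 in PS and 9.417 ± 0.849 in Control brains (SD, n = 3 each). On the log2 scale the difference was -0.004, with SDs of 0.167 in PS and 0.13 in Control (two-sided exact permutation test, p = 0.9, where 3 against 3 libraries cannot go below 0.1). The sign of so small a difference turned with the denominator, for example to 0.007 with the geometric mean of the 6. Put the other way, the 6 heavy-strand members summed to 1072 ± 121 times ND6 in PS and 1068 ± 95.9 times ND6 in Control brains. COX1 alone was 379.3 ± 44.6 times ND6 in PS and 367 ± 37.6 times in Control, and ND5, its neighbour on the opposite strand, 82.34 ± 5.08 and 82.1 ± 9.01 times.

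**Figure D4:**
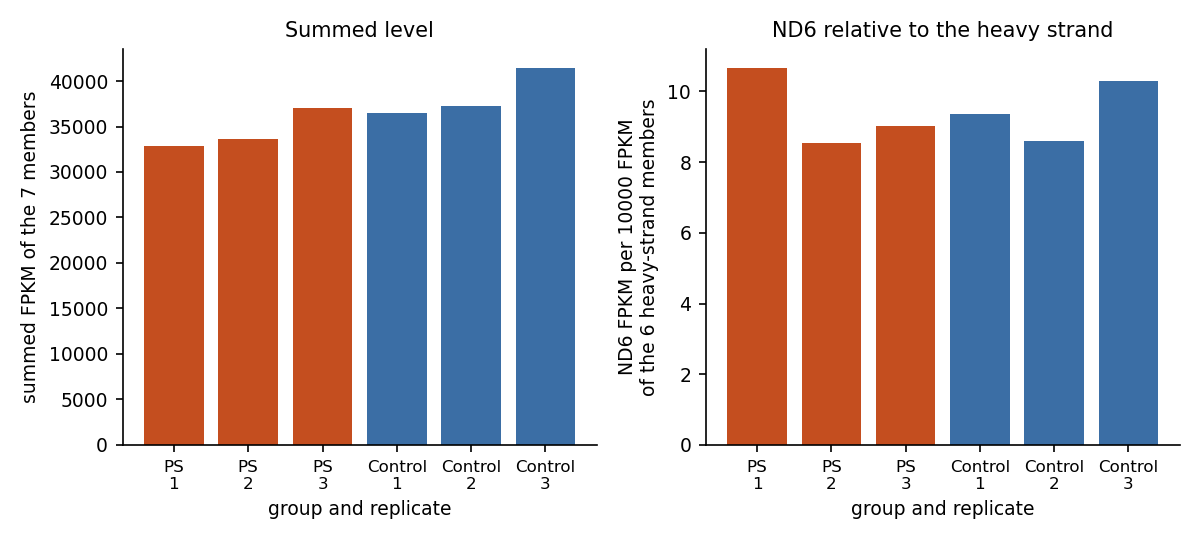
Left, summed FPKM of the 7 members in each library; right, ND6 FPKM per 10000 FPKM of the 6 heavy-strand members in each library (1 bar per library). The summed level is highest in Control replicate 3, while the relative level of ND6 is highest in PS replicate 1 and lowest in PS replicate 2.

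The heavy-strand members kept nearly fixed proportions to each other from library to library. Ratios between 2 heavy-strand members (15 pairs) had coefficients of variation of 1.67 to 4.97% over the 6 libraries, with a median of 3.81%. Ratios with ND6 (6 pairs) had 7.96 to 10.52%. The steadiest pair was ND4 and CYTB, at 1.67%. COX1 made up 34.99, 35.15 and 35.83% of the members' summed FPKM in PS and 35.23, 34.26 and 33.47% in Control brains, so the groups overlapped. The share of ND2 was 9.976, 9.746 and 9.854% in PS and 10.18, 10.41 and 10.06% in Control brains, a difference of -0.36 percentage points between the means, without overlap and with no test. These shares sum to a whole, so a lower share of 1 member raises the others.

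The summed FPKM of the members stood at 34485 ± 2200 in PS and 38392 ± 2652 in Control brains (SD, n = 3 each). By library it was 32850, 33620 and 36987 in PS, and 36480, 37276 and 41420 in Control. PS replicate 3 therefore lay above Control replicate 1. As a share of reads, the members took 4.507 ± 0.292% in PS and 4.997 ± 0.331% in Control brains. The log2 ratio of the mean sums was -0.155, and the libraries of a group varied by an SD of 0.094 on that scale. Without Control replicate 3 the ratio was -0.097, about the size of that SD. Within each pair of same-numbered libraries all 6 heavy-strand members were lower in PS in 3 of 3 pairs, and ND6 in 2 of 3. With the replicate number as a block, 0 of the 7 were called by limma and the adjusted p ran from 0.703 to 0.928.

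The genes for the nuclear-encoded partners were examined from 8 lists of 124 genes in all, of which 118 passed the filter on low values. None of the 118 was called, by limma on log2 FPKM or by limma-voom, and 4 had an unadjusted p under 0.05 by limma, a smaller share than the 5.94% of all tested genes. Of 62 nuclear subunits of complexes I to IV, 49 had a positive and 13 a negative log2 fold change, all between -0.05 and 0.13. The medians were 0.03 for complex I, 0.005 for complex II, 0.03 for complex III and 0.02 for complex IV. Without Control replicate 2 these 4 medians were -0.047, -0.054, -0.038 and -0.039. Without PS replicate 2 complex II and complex III stood at -0.005 and -0.002, without PS replicate 3 complex IV stood at -0.002, and sample weights gave -0.026 for complex I, -0.001 for complex III and -0.019 for complex IV. The sign of these medians was thus not stable. Ndufa7, an accessory subunit of complex I, had 134.1 ± 8.15 FPKM in PS and 122.9 ± 9.57 FPKM in Control brains (log2 fold change 0.13, limma adjusted p = 0.916). Ndufab1, the mitochondrial acyl carrier protein, and Ndufa10 had log2 fold changes of 0.12 and 0.06. For complex III the 3 lowest p-values belonged to Uqcrq, Uqcr11 and Uqcrfs1 (0.09, 0.05 and 0.04), the last being the Rieske iron-sulfur protein. For complex IV they belonged to Cox7b, Cox8a and Cox5b (0.08, 0.06 and 0.06), and for complex II, which has no mitochondrially encoded subunit, to Sdhd, Sdhc and Sdhb (0.05, 0.01 and -0.01).

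**Figure D5:**
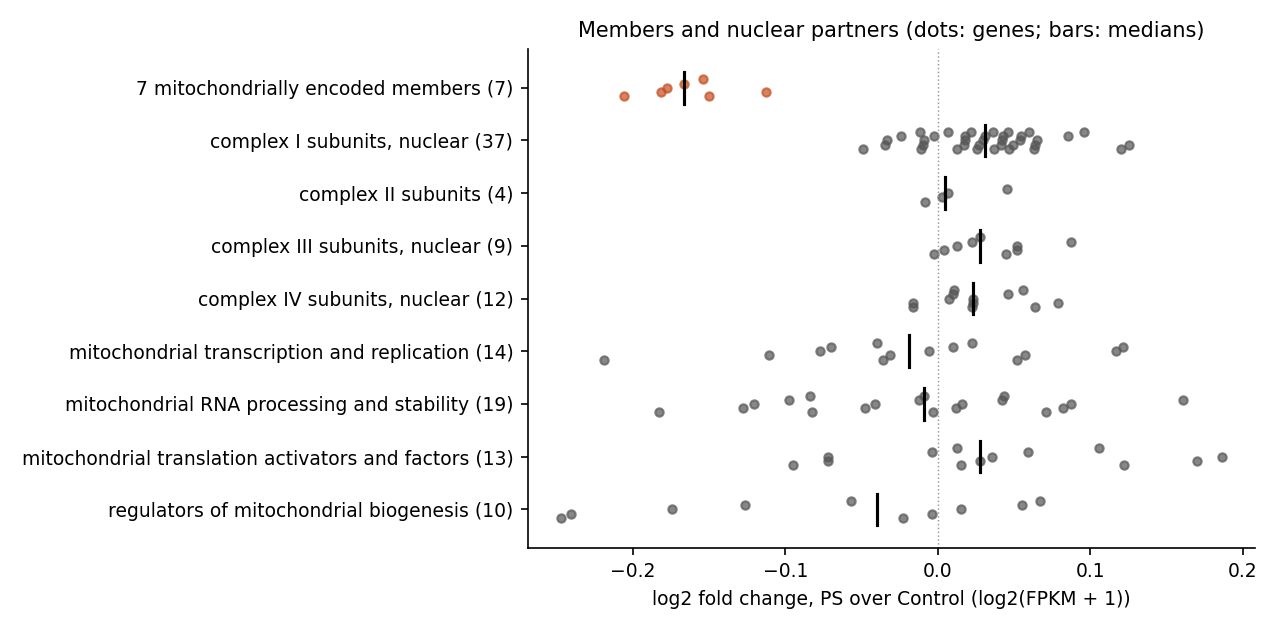
Log2 fold change of PS over Control for the 7 members (top) and for the tested genes of 8 lists of nuclear partners (1 dot per gene, numbers tested in brackets, black bars are medians). The members have a median of -0.17, and the list medians lie between -0.04 and 0.03.

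Genes that make, process and translate mitochondrial RNA showed both signs. In the list of transcription and replication 8 of 14 tested genes were lower and 6 higher (median -0.02). Polrmt, the mitochondrial RNA polymerase that copies both strands, had 5.786, 5.717 and 6.4 FPKM in PS and 7.582, 7.138 and 6.618 FPKM in Control brains. Its groups did not overlap, but the log2 fold change of -0.22 (SE 0.073) did not pass (limma adjusted p = 0.668, and 0.489 with the replicate block). Of the 118 tested genes of the 8 lists, 7 lay lower in PS without overlap and 2 higher. Over all tested genes the share lower without overlap was 6.33%, so such cases do not set these lists apart. The single-strand binding protein gene Ssbp1 and the elongation factor gene Tefm had log2 fold changes of 0.12 each. In the list of RNA processing and stability 11 of 19 were lower (median -0.01). Fastkd5, which in human cells takes part in processing mRNA ends that have no tRNA beside them, had 2.706 ± 0.0582 FPKM in PS and 3.217 ± 0.352 FPKM in Control brains (log2 fold change -0.18, limma adjusted p = 0.838). Fastkd1 stood at -0.12 and Hsd17b10, a subunit of mitochondrial RNase P, at 0.16.

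Of 13 translation activators and factors, 9 were higher (median 0.03). Gfm2, a factor of ribosome recycling, stood at 0.19, Mtrf1l, a release factor, at 0.17 and Cox14, which acts in COX1 synthesis, at 0.12. Every PS value of Mtrf1l lay above every Control value, though narrowly. Of 10 tested regulators of mitochondrial biogenesis, 7 were lower (median -0.04). Sirt1, a deacetylase that acts on PGC-1 alpha, had 3.648, 3.424 and 3.726 FPKM in PS and 4.091, 4.999 and 4.246 FPKM in Control brains, without overlap (log2 fold change -0.24, limma adjusted p = 0.681). Pprc1 and Ppargc1b, both of the PGC-1 coactivator family, stood at -0.25 and -0.17 (limma adjusted p = 0.791 and 0.856).

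Genes outside the mitochondrial genome were ranked by how closely their log2(FPKM + 1) followed the mean of the members over the 6 libraries. The closest were Rrs1, a ribosome assembly factor (Pearson r = 0.985), Zscan21, a zinc-finger protein (0.977), Mat2a, which makes S-adenosylmethionine (0.976), Dusp22, a phosphatase (0.972) and Cul4a, a ubiquitin ligase scaffold (0.969). Mat2a had 42.34 ± 2.02 FPKM in PS and 48.72 ± 5.13 FPKM in Control brains. The most opposite were the chaperone gene Calr (-0.995), Hnrnpm, an RNA-binding protein (-0.994), and Bicd2, a dynein adaptor (-0.978). Calr had 144.5, 146.7 and 133.1 FPKM in PS and 132.2, 131 and 118.5 FPKM in Control brains. The points are 6 libraries that share their scaling, and 7823 genes were searched, so these values are a description with no test. By the same measure ND6 reached 0.817 with the mean of the members, of which it is 1, and the others 0.922 to 0.985.

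Signs of cell makeup were read from 7 marker lists, none of which had a gene at 0 in all libraries. The 8 neuronal markers, all detected as the label of whole brain requires, summed to 2067 to 2228 FPKM in PS and 2155 to 2191 FPKM in Control brains. Their log2 fold changes ran from -0.06 to 0.01. Markers of red cells (5 of 5 lower, without overlap) summed to 56.72 to 99.49 FPKM in PS and 127.4 to 196.4 FPKM in Control brains. With the replicate block 4 of these 5 were called by limma, and without it 0, although all 5 had an unadjusted p under 0.05 and limma-voom called 1. Over all tested genes 6.33% lay lower in PS without overlap, and 5.94% had an unadjusted p under 0.05 by limma. Of the same genes 0.393% were called with the block and 0.237% by limma-voom. The labels do not link same-numbered libraries. Oligodendrocyte markers (6 of 6 higher) summed to 1460 to 1650 FPKM in PS and 1060 to 1528 FPKM in Control brains, astrocyte markers (6 of 6 higher) to 367.6 to 399.9 and 361.9 to 377.8 FPKM. Microglial markers (3 of 6 higher) summed to 86.95 to 103.3 FPKM in PS and 92.05 to 101.2 FPKM in Control, endothelial markers (5 of 6 lower) to 59.34 to 66.2 and 63.41 to 73.86 FPKM, and choroid plexus markers (5 of 5 higher) to 779.5 to 1293 and 631.5 to 1101 FPKM. Ttr made up most of the choroid plexus sum, with 757.8 to 1255 FPKM in PS and 613.9 to 1071 FPKM in Control brains. Without Control replicate 2 the median log2 fold change of the oligodendrocyte list was 0.085 in place of 0.231, and that of the choroid plexus list -0.031 in place of 0.209. The part of these in the levels of the members was not tested.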

How the data were processed

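RNA sequencing libraries of mouse whole brain, 3 PS and 3 Control, were grouped by their labels. Per the labels' protocols, TRIzol was used for extraction and a VAHTS Universal V6 kit for library making. Each library has 1 deposited table, with gene values in FPKM as the authors computed them. Per the submitters' processing notes, the build was GRCm39 and the tools included fastp, HISAT2, HTSeq and R 3.2.0, with no order or settings. Members and gene lists were chosen with earlier results of these data known.

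The FPKM values moved in whole steps. With RefSeq lengths of the mitochondrial protein genes, totals of 39239183 to 40335590 reads made the values of these genes whole. For every other gene the length was then fitted, as the shortest that gave whole reads within 0.02. Whole reads were reached in this way for 99.992% of 26556 genes above 0, a share that is thus no check on the totals. PS replicates 1, 2 and 3 had 40033806, 40335590 and 40015627 reads and Control replicates 39694248, 39239183 and 39632748. Replicates differed by far more than sampling noise (chi-square per degree of freedom 8.55 to 31.57). These reads measured depth and fed limma-voom. Control replicate 2 lay apart on the first principal component (42.3% of the variance).

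Genes with a mean of at least 1 FPKM (12229, with 15149 removed) were tested as log2(FPKM + 1) with limma 3.58.1 in R 4.3.3, with a variance trend, two-sided, with Benjamini-Hochberg adjustment over all 12229. Fold changes on this scale understate low genes. The code was tested on simulated data. Words of 50 bases were compared with other GENCODE M21 transcripts on both strands. The genes named were every member, the other mitochondrial protein genes, the 3 of each pathway list with the lowest unadjusted p, and the 5 most and 3 least like the members at a mean of at least 5 FPKM. Clone names and predicted genes were skipped in that search. Marker lists were summed.

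Replicate numbers run 1 to 3 in both groups. Deviations from the group means correlated at 0.181, 0.185 and 0.161 between same-numbered libraries, all above 0.1. The labels do not link them, so a pairing would come from the data. The blocked fit is given where it changes a call. Alternatives were another pseudocount, other filters, rescalings, variance models, weights, the block, voom and each library left out.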

Additional observations from a re-analysis of the deposited data

How the results depend on the processing

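All 7 members had negative log2 fold changes, and 0 were called, in every fit run, with the exception of quantile normalization. There ND5 was 0.02, ND4 -0.039, ND6 -0.152, and the other 4 members 0, because these rank alike in all libraries. Leaving out 1 library at a time gave member values from -0.26 to -0.04, and sample weights gave -0.13 to -0.06. The number of genes called among all tested, 20, was 1 with no filter, 9 with a mean of at least 5 FPKM, 632 with sample weights and 48 with the replicate block, and it ran from 0 to 66 with 1 library left out: 0 without PS replicate 2, 2 without PS replicate 1 or Control replicate 1, and 66 without Control replicate 3. The causes were not tested. The log2 difference of ND6 relative to the heavy strand, -0.004, ran from -0.098 to 0.063 with 1 library left out, changing sign without PS replicate 2 (0.063), PS replicate 3 (0.022) or Control replicate 3 (0.062). It was 0.007 with the geometric mean as denominator. With 1 member as denominator, a choice made after seeing the data for all but ND5, it was 0.023 for ND1, 0.048 for ND2, 0.019 for ND4, 0.008 for CYTB and -0.046 for COX1, and with ND5 it was -0.008. Within same-numbered pairs (the replicate block) it was -0.004, where 3 pairs cannot give an exact p below 0.25. The log2 ratio of the summed level, -0.155, was -0.164 with FPKM rescaled to a total that leaves out mitochondrial genes and ran from -0.208 to -0.097 with 1 library left out, the last without Control replicate 3. Among the nuclear partner lists, the block changed no call and sample weights called 3 genes of 118. With 600 to 876 reads, ND6 is the member that depth limits most.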

Other observations

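Of the 6 mitochondrial genes left out of the set, ATP6 and ATP8 had lower levels in PS brains that missed the threshold in limma. Both passed it with the replicate number as a block, but the labels do not link same-numbered libraries. Such a pairing would come from these same data. ATP6, a subunit of the proton channel of ATP synthase, had 89.32, 57.52 and 64 FPKM in PS replicates 1, 2 and 3, against 143.8, 124.5 and 126.6 FPKM in the Control replicates. Its log2 fold change was -0.92 (SE 0.143, limma adjusted p = 0.0626, and 0.00164 with the replicate block). It also passed by limma-voom (adjusted p = 0.0353), with sample weights (0.00153) and without PS replicate 1 (0.00901), and over all settings its adjusted p reached 0.481, with no filter. ATP8, a small partner subunit whose gene overlaps ATP6, had 6.857, 12.15 and 10.66 FPKM in PS and 20.5, 38.48 and 16.7 FPKM in Control brains (log2 fold change -1.21, limma adjusted p = 0.327, and 0.00903 with the block). ATP8 also passed with sample weights (adjusted p = 0.0135), and its adjusted p reached 0.999 without PS replicate 1. Over all tested genes, 632 of 12229 were called with sample weights, 48 with the block, 29 by limma-voom and 20 by limma without the block. Without PS replicate 1 it was 2 of 12235. Every PS value of ATP6 and of ATP8 lay below every Control value. The same held narrowly for COX2, with 102.44 FPKM in PS replicate 1 and 102.65 FPKM in Control replicate 2. Over all tested genes 6.33% lay lower in PS without overlap. Reads cannot be split with certainty where the 2 genes overlap.

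The 4 others did not pass with or without the block. COX2 passed with sample weights (limma adjusted p = 0.0212), a setting that called 632 of all 12229 tested genes. COX2 had a log2 fold change of -0.65 (limma adjusted p = 0.486, and 0.124 with the block), ND4L -0.63 (0.704 and 0.421), ND3 -0.06 (0.983 and 0.933) and COX3 0.05 (0.996 and 0.994). COX3 had 159.4 FPKM in Control replicate 3, against 66.28 to 75.22 FPKM in the other Control libraries. These genes rested on 56 to 4952 reads per library. ATP6 shared 99.5% of its 50-base words with annotated nuclear transcripts, ATP8 0% and COX2 100%. Copies outside annotated transcripts were not searched, so 1 of ATP8 could have been missed. The part of such sharing in the differences was not tested.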
